A study of Mus musculus with 2 samples.

Results

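Sox10, Foxd3, Erbb3, Nrg1, S100b, Fabp7, Ngfr and Gfap are grouped here as genes of neural crest cells and of their glia. These 8 genes, out of 43346 gene identifiers in the deposited tables, were taken by symbol and each matched 1 row in both libraries. The tissue was the whole stomach of mouse embryos of strain B6NCrl at 14.5 days of gestation. The 2 libraries, biological replicates 2 and 1 of a single group, were each made from the stomach of 1 pup. The collection date fell on day 17 of the month for replicate 2 and day 15 of the month for replicate 1. Each embryo was at 14.5 days of gestation. The labels give no transgene, treatment or second condition, and they record the sex as male and female pooled, although each sample is said to come from 1 pup. No comparison between conditions exists, so the data answer how abundant each gene was and how far the embryos differed.

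Neural crest cells leave the neural tube, and the vagal stream enters the foregut and populates the stomach and bowel with the enteric nervous system. SOX10 and FOXD3 are transcription factors that keep these cells as progenitors, and SOX10 stays on in glia while it is lost in neurons. Neuregulin 1 signals through ERBB3, which has little kinase activity of its own and works in a pair with ERBB2, and this signal is needed by Schwann cell precursors. FABP7, also called brain lipid-binding protein, marks early glial progenitors, whereas S100B and the filament protein GFAP are markers of later glia. In bulk tissue, fewer cells of a type and less RNA per cell cannot be told apart. Nor do the levels show which cells of the stomach held the RNA of a gene, Erbb3 and Nrg1 included.

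Total expected counts, the estimated read numbers per library, were 25599910 in replicate 2 and 25072242 in replicate 1. The stomach identity list was detected in full, 8 of 8 genes, led by chymosin Cym at 1927 TPM in replicate 2 and 2152 TPM in replicate 1. Next were the keratin Krt8, at 567 TPM in replicate 2 and 647 TPM in replicate 1, and the stomach mesenchyme factor Barx1, at 94.5 TPM in replicate 2 and 108 TPM in replicate 1. The libraries stood apart at 2 lists. The summed counts of 4 Y-linked genes were 2 in replicate 2 and 6559 in replicate 1, and those of 8 exocrine pancreas genes were 398 in replicate 2 and 11611 in replicate 1. All 8 pancreas genes lay over 2-fold lower in replicate 2, the most abundant being Clps, at 39.5 TPM in replicate 2 and 205 TPM in replicate 1. Pnliprp1 was at 0.04 TPM in replicate 2 and 186 TPM in replicate 1, and Ctrb1 at 0.07 TPM in replicate 2 and 152 TPM in replicate 1. Cel, at 0.06 TPM in replicate 2, and Prss2 and Ptf1a, both at 0 TPM there, were the other pancreas genes under 1 TPM.

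Sequence before the start site was taken from RefSeq (build GRCm38.p6) for the 5 members with an entry, Foxd3, Fabp7, S100b, Ngfr and Gfap. The windows of the most and the least abundant of the 8 genes are shown, since they stand at opposite ends of the range reported below, and the Fabp7 window stops where the first annotated exon begins. Capitals mark matches to ACAANG, a SOX-type motif, and to CCAAT, on either strand. Both lie on GRCm38.p6, Fabp7 on the plus strand at chr10:57784673-57784880 and Gfap on the minus strand at chr11:102897201-102897450.
Fabp7: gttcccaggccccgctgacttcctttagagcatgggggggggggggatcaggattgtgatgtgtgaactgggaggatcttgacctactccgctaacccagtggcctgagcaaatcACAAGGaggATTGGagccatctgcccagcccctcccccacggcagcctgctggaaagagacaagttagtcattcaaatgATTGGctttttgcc
Gfap: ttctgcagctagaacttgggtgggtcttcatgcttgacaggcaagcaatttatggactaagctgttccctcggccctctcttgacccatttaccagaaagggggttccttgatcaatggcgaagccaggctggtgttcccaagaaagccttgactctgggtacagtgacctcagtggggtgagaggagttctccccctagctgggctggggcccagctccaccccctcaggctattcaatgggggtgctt
The Gfap window lies inside the span that the GENCODE M21 annotation gives the gene, whose outermost start is at 102900912. In the full 250 bases before the RefSeq start, Fabp7 held 1 ACAANG match and 2 CCAAT matches, and so did S100b, while Foxd3, Ngfr and Gfap held none of either. No match overlapped another. Across 32851 promoter windows of the same length, 36.3% held ACAANG and 33.9% held CCAAT. None of the 5 held TATAAA, present in 12.4% of windows, or GTGGGAA, the motif of the Notch effector RBPJ, present in 5.42%. The windows differed in CG dinucleotides, with 21 in Foxd3 and 16 in Ngfr, against 4 in Fabp7 and 2 each in S100b and Gfap, where the median window held 6. Foxd3 and S100b, whose levels overlapped, thus stood at opposite ends of this count.

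The 8 genes spanned a range from Fabp7 at 58.3 ± 1.52 TPM to Gfap at 0.360 ± 0.141 TPM (mean ± SD, n = 2). TPM divides counts by transcript length, so it allows levels to be set side by side between genes. At TPM 1 or more in both libraries, the threshold of detection used here, 7 of the 8 were detected, and Gfap was not. Of all 43346 genes, 34.9% were detected, a background that does not bear on genes picked for their known role in this lineage. Fabp7 and Erbb3 were above the median of the 15137 detected genes in both libraries, that median being 15.3 TPM in replicate 2 and 16 TPM in replicate 1. The other 6 were below it.

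**Figure D1:**
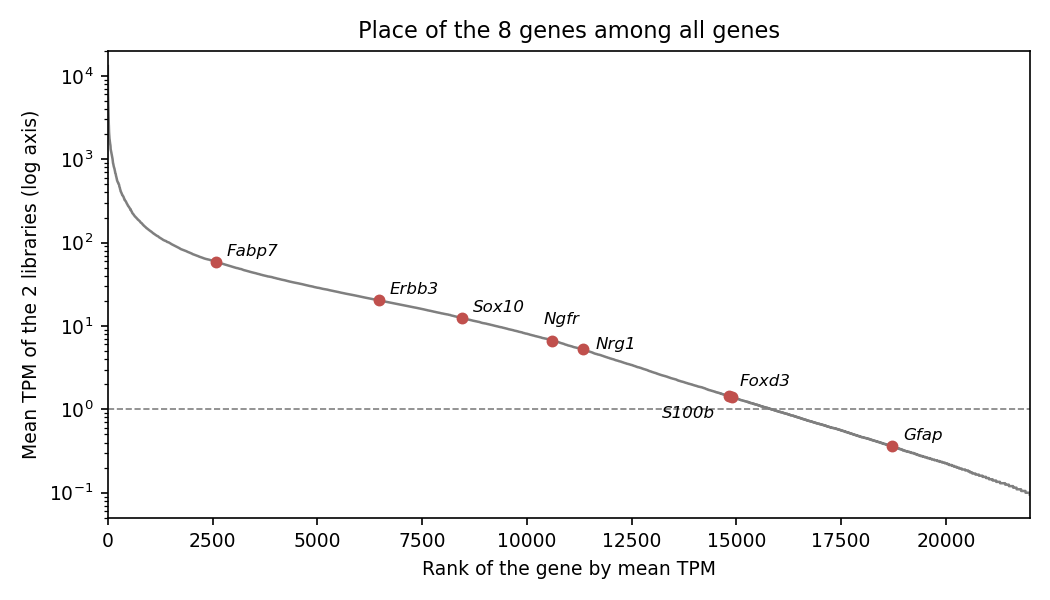
Mean TPM of the 2 libraries (log axis) against the rank of each gene, with the 8 genes as red points and all genes as a grey line; the dashed line marks TPM 1. Fabp7 stands highest at 58.3 TPM and Gfap, at 0.360 TPM, is the member below the line.

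Among the transcription factors, Sox10 had 580 expected counts in replicate 2 and 548 in replicate 1, equal to 12.4 TPM in both. Its level was the closest match between the libraries on the TPM scale, 12.4 ± 0.028 TPM (n = 2), and the log2 ratio of replicate 2 over replicate 1 was 0.06 (95% counting interval -0.11 to 0.23). Foxd3 was far lower, with 51 counts in replicate 2 and 60 in replicate 1, or 1.28 and 1.60 TPM. Within each library Foxd3 stood at 0.103 times the TPM of Sox10 in replicate 2 and 0.129 times in replicate 1. The log2 ratio of Foxd3, -0.25, had an interval that spans 0 (-0.82 to 0.31). Sox10 lies on chromosome 15 (ENSMUSG00000033006.9, 79154908 to 79165240, minus strand) and the single-exon gene Foxd3 on chromosome 4 (ENSMUSG00000067261.4, 99656299 to 99658622, plus strand).

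Of the ligand and receptor members, Erbb3 (ENSMUSG00000018166.8, chromosome 10, 128567523 to 128589652, minus strand) had the most counts, 2113 in replicate 2 and 2055 in replicate 1. It stood at 19.9 TPM in replicate 2 and 20.6 TPM in replicate 1, with a log2 ratio of 0.02 (-0.07 to 0.11). That interval was the narrowest of the 8, as the counts were the highest. Ngfr, the low-affinity neurotrophin receptor p75 by which enteric crest cells are often isolated, had 377 counts in replicate 2 and 400 in replicate 1 (ENSMUSG00000000120.6, chromosome 11, 95568818 to 95587735, minus strand). Its level was 6.29 TPM in replicate 2 and 7.09 TPM in replicate 1, and its log2 ratio of -0.11 had an interval that spans 0 (-0.31 to 0.10).

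Nrg1, the ligand, was the member whose counts differed between the libraries beyond counting error. The log2 ratio of Gfap, 0.88, lay further from 0, but on fewer counts. Nrg1 had 139 counts in replicate 2 and 223 in replicate 1, equal to 3.88 TPM in replicate 2 and 6.60 TPM in replicate 1. The log2 ratio was -0.70 (-1.02 to -0.39), or 1.63-fold higher in replicate 1. Of the 8 intervals, this was the 1 that did not span 0, but the interval covers counting error only, and no p-value can be had from a single library against another. Of 17510 genes averaging 10 counts or more, the genes tested here, 7.24% lay at least as far apart as Nrg1. That share includes many genes with fewer counts than Nrg1, which averaged 181. Over 2-fold apart were 3.60% of the tested genes, but 0.298% of the 12761 genes averaging 100 counts or more. The share as far apart as Nrg1 among genes of like counts was not measured. The pancreas and Y-linked lists given above were higher in the same library, and their part in the difference of Nrg1 was not tested. The TPM of Erbb3 was 5.14 times that of Nrg1 in replicate 2 and 3.12 times in replicate 1.

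Of the glial proteins, Fabp7 (ENSMUSG00000019874.7, chromosome 10, 57784881 to 57788450, plus strand) had 723 counts in replicate 2 and 708 in replicate 1. It alone held 55.7% of the summed TPM of the 8 genes in replicate 2 and 54.2% in replicate 1. Its log2 ratio was 0.01 (-0.14 to 0.16), the smallest difference of the 8. S100b, a calcium-binding protein gene (ENSMUSG00000033208.7, chromosome 10, 76253853 to 76261159, plus strand), had 30 counts in replicate 2 and 37 in replicate 1. Its 1.21 TPM in replicate 2 and 1.58 TPM in replicate 1 were just over the threshold. Its counting interval was 20.2 to 42.8 in replicate 2 and 26.1 to 51.0 in replicate 1, and in replicate 2 the lower bounds of S100b and of Foxd3 correspond to less than TPM 1. Gfap (ENSMUSG00000020932.10, chromosome 11, 102887336 to 102900912, minus strand) had 21 counts in replicate 2 and 11 in replicate 1, for 0.460 and 0.260 TPM. Both libraries held Gfap reads in numbers above the one-sided limit of 3 counts that a count of 0 allows, and both stayed under TPM 1. The log2 ratio of Gfap, 0.88, had the widest interval, -0.21 to 2.11, so no direction was detectable at this depth. The TPM of Fabp7 was 47.3 times that of S100b in replicate 2 and 37.6 times in replicate 1.

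**Figure D2:**
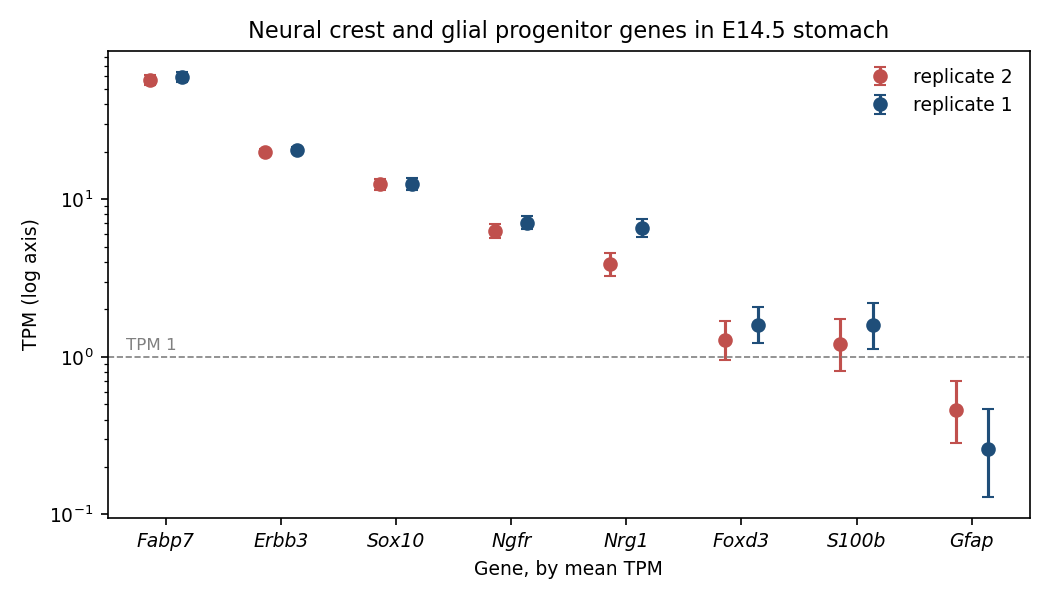
TPM (log axis) of each gene in replicate 2 (red) and replicate 1 (blue), with bars for the exact 95% counting interval; the dashed line marks TPM 1. The values of the 2 libraries lie close together for Fabp7, Erbb3 and Sox10, and the bars of Nrg1, at 3.88 and 6.60 TPM, do not meet.

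The order by mean level was Fabp7, Erbb3, Sox10, Ngfr, Nrg1, Foxd3, S100b and Gfap, and it was the same within each library. Neighbours in that order were apart in all but 2 places. The values of Ngfr and Nrg1 overlapped, the lowest of Ngfr being 6.29 TPM and the highest of Nrg1 6.60 TPM. Foxd3 and S100b overlapped too, the lowest of Foxd3 being 1.28 TPM and the highest of S100b 1.58 TPM.

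None of the 8 genes lay over 2-fold apart between the libraries, where 631 of 17510 tested genes did, 3.60%. All 8 passed the count filter. Of them, 4 were higher and 4 lower in replicate 2. Their log2 ratios had a median of -0.05, against -0.003 for all tested genes. For 95% of tested genes the log2 ratio lay between -0.87 and 0.84, and Gfap, with the fewest counts, was the single member outside that range. Spike-in RNAs took 6.71% of counts in replicate 2 and 5.60% in replicate 1. Scaling on them moved the typical log2 ratio by -0.27, and under that scaling Fabp7, Erbb3 and Sox10, at -0.26, -0.25 and -0.21, were lower in replicate 2, so their near-equal levels are relative to the typical gene.

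**Figure D3:**
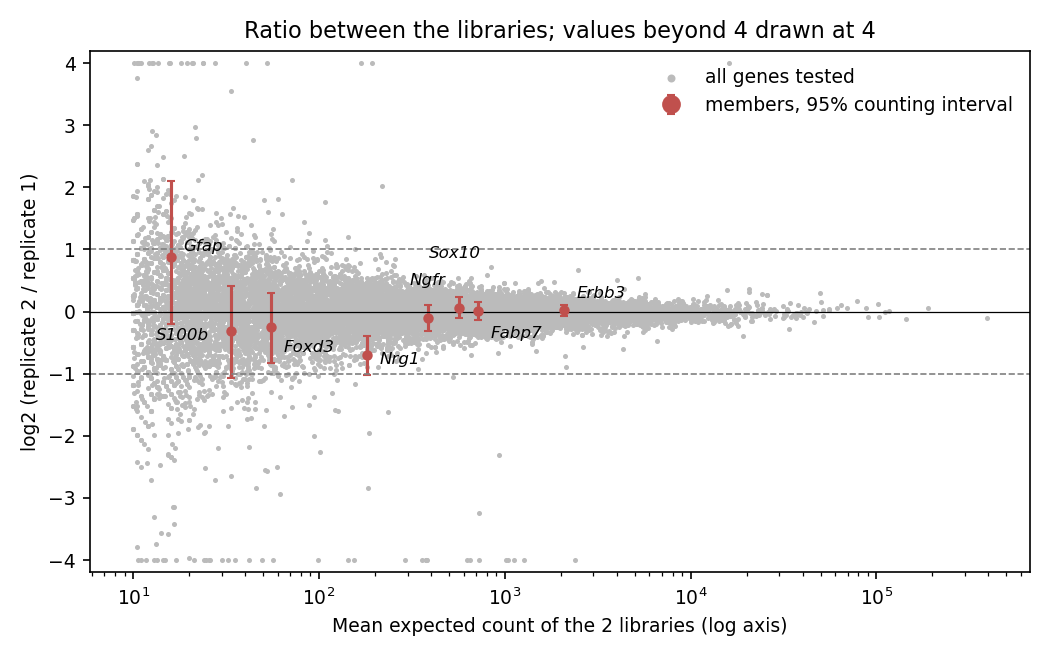
Log2 ratio of replicate 2 over replicate 1 against the mean expected count (log axis), with all 17510 tested genes in grey and the 8 members in red with 95% counting intervals; dashed lines mark 2-fold, and grey points beyond 4 are drawn at 4. All 8 points lie between the dashed lines, and Nrg1, at -0.70, has an interval that stays below 0.

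Counts of all 8 genes were whole numbers within 0.005, so no read of theirs was divided in fractions with another gene, though whole counts do not show the strand a read came from. The tables hold 1 transcript each for Sox10, Foxd3, Erbb3, Nrg1, S100b and Ngfr, so 100% shares there are fixed by the annotation. Fabp7 had 2 transcripts, and the shorter, ENSMUST00000020024.7 of 804 bases, took 99.1% in replicate 2 and 97.3% in replicate 1. Gfap had 3. Its ENSMUST00000067444.5 took 100% in replicate 2 and 49.5% in replicate 1, and ENSMUST00000077902.4 took 0% in replicate 2 and 50.5% in replicate 1, shares that rest on 21 and 11 counts. The deposited posterior mean shares differed, with 64.9% in replicate 2 and 28.2% in replicate 1 for the first, 4.97% and 28.8% for the second, and 30.1% and 43.0% for the third, ENSMUST00000127909.1 of 356 bases, so no order of the Gfap transcripts was detectable.

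The value for Nrg1 covers a small part of its locus. The tables counted 1 transcript of 2103 bases, ENSMUST00000073884.4, close to the 2100 coding bases that a later annotation, GENCODE M21 on the same mm10 assembly, gives the same transcript. That annotation places 18 Nrg1 transcripts, 12 of them protein coding, over 1069479 bases of chromosome 8 (ENSMUSG00000062991.6, 31814551 to 32884029, minus strand). Of their 10351 exonic bases, 76.3% lie outside the M21 form of the counted transcript. By their starts, 10 of the 18 begin over 50 kb upstream of the counted one, and 2 of these lie within 2 kb of the first start, 966 kb away. Reads on exons outside the counted transcript were not assigned to Nrg1, so its TPM covers the exons of 1 model and not the gene as now annotated. In M21 each of these exons also lies within exons of other models. For Foxd3, Erbb3, S100b, Fabp7, Ngfr and Gfap the number of transcripts was the same in M21, and for Sox10 it was 4 in M21 against 1 in the tables.

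**Figure D4:**
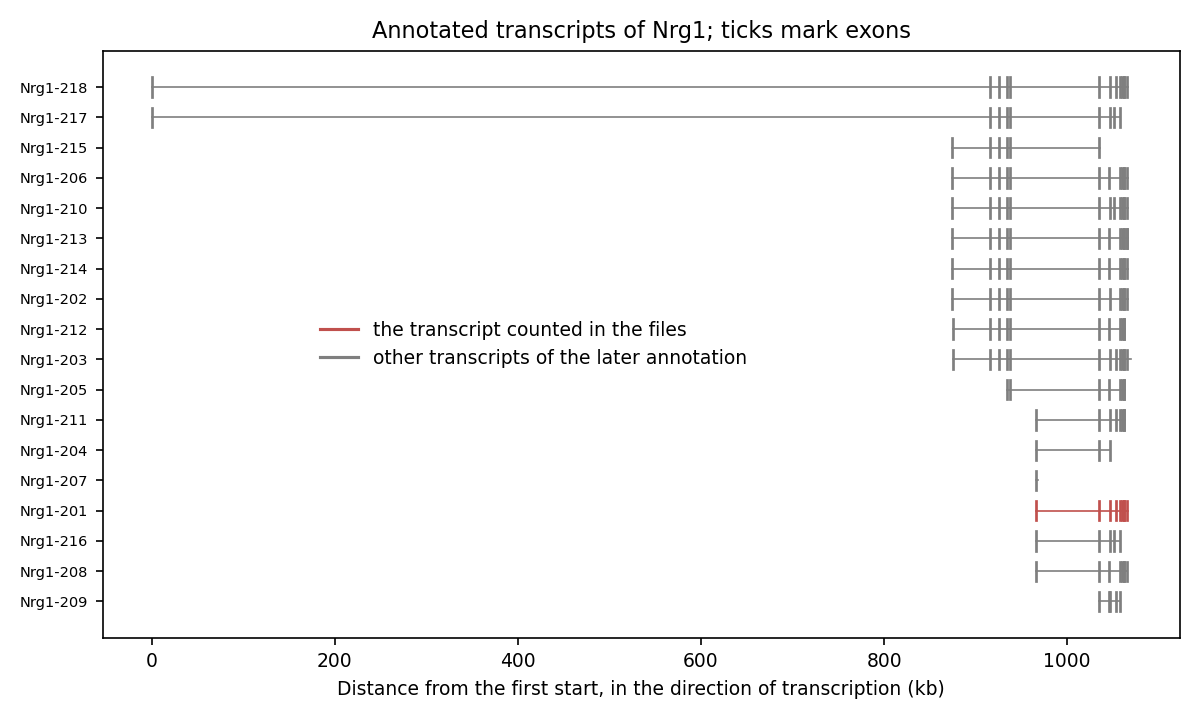
The 18 Nrg1 transcripts of GENCODE M21, with the horizontal axis giving distance in kb from the first start along the direction of transcription and ticks marking exons; the transcript counted in the tables is red. The counted transcript begins 966 kb from the first start, and 10 others begin over 50 kb before it.

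Whether counting used strand is not given in the sources used here, so reads of overlapping antisense genes cannot be told apart. S100b overlaps the antisense gene Dip2a over 1731 bases, and Dip2a had 448 counts in replicate 2 and 446 in replicate 1. All of Gfap lies inside the antisense noncoding gene Gm26668, which had 80.1 counts in replicate 2 and 57.9 in replicate 1. These counts exceed those of S100b and Gfap, and how many of them lie in the overlaps was not measured. The overlaps are of whole gene spans, introns included, and whether the exons overlap was not measured either. Nrg1 overlaps the antisense noncoding gene Gm26578, with 36 counts in replicate 2 and 34 in replicate 1. In M21, however, Gm26578 (32008504 to 32015759) lies upstream of the start of the counted Nrg1 transcript and outside its exons. Sox10, Erbb3, Fabp7 and Ngfr have no antisense overlap in M21, nor has Foxd3.

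Of 8 neuregulin and ERBB genes, 4 were detected, 3 ERBB receptors and 1 neuregulin, and none of the 8 lay over 2-fold apart. Erbb2, the partner of ERBB3, was highest, at 35.3 TPM in replicate 2 and 38.1 TPM in replicate 1, which is 1.77 and 1.85 times the level of Erbb3. Egfr followed Erbb3 at 15.4 TPM in replicate 2 and 19.2 TPM in replicate 1. Erbb4, the other neuregulin receptor, had 42 counts in each library and stood at 0.420 TPM in replicate 2 and 0.750 TPM in replicate 1, the TPM differing through the effective length, 5637 bases in replicate 2 and 3322 in replicate 1. Among the ligands, Nrg1 was the 1 detected in both libraries. Nrg4 was at 1.46 TPM in replicate 2 and 0.800 in replicate 1, Nrg3 at 0.820 and 1.07, and Nrg2 at 0.640 and 0.470.

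Other ligands of the ERBB family were detected in part. Of 7, the 3 detected were Tgfa (5.82 ± 1.19 TPM, n = 2), Hbegf (4.38 ± 0.276 TPM) and Btc (2.90 ± 0.035 TPM), while Areg (0.975 ± 0.445), Egf (0.650 ± 0.071), Ereg (0.125 ± 0.007) and Epgn (0.12 ± 0.127 TPM) were under TPM 1 in at least 1 library. All 5 proteases that can cleave neuregulin from the cell surface were detected, led by Adam10 (52.7 ± 4.32 TPM), Bace2 (29.1 ± 4.13 TPM) and Bace1 (28.7 ± 1.89 TPM). These proteases have many substrates and are used by many cell types. In these lists no gene that averaged 10 counts lay over 2-fold apart.

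Ngfr can be read beside the neurotrophins and their kinase receptors, of which 7 of 9 genes, Ngfr included, were detected. Ntf3, the neurotrophin to which enteric crest cells respond through NTRK3, had the highest mean, with 11.02 TPM in replicate 2 and 9.84 TPM in replicate 1, followed by Sort1, which was above it in replicate 1, at 9.59 TPM in replicate 2 and 10.3 TPM in replicate 1. Ngfr was next, and Ntrk3, named here after its value was seen, was at 3.13 TPM in replicate 2 and 4.60 TPM in replicate 1. Ntrk2, a receptor of BDNF, had 80 counts in replicate 2 against 169 in replicate 1. Its log2 ratio was -1.10, and it was the 1 gene of the list over 2-fold apart.

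Sox10 was the middle of the 3 SOXE genes, all detected. Sox9, which epithelial and mesenchymal cells also use, was at 25.9 TPM in replicate 2 and 31.3 TPM in replicate 1, and Sox8 at 6.48 TPM in replicate 2 and 5.37 TPM in replicate 1. Of the 4 FOXD genes Foxd3 alone was detected: Foxd1 had 2 counts in replicate 2 and 0 counts in replicate 1, Foxd2 had 0 and 2, and Foxd4 had 0 in both, which allows up to 3 counts in each as a one-sided limit.

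Other transcription factors of the neural crest were detected in part. Of 11, 7 were detected, led by Snai2 (118 ± 4.38 TPM, n = 2), Ets1 (30.9 ± 1.17 TPM) and Sox5 (21.4 ± 1.86 TPM), genes that mesenchyme or endothelium also express. The 4 under TPM 1 were Tfap2a (0.615 ± 0.078 TPM), Tfap2b (0.145 ± 0.035 TPM), Pax3, with 1 count in replicate 2 and 0 in replicate 1, and Zic1, with 0 counts in both libraries. The 4 are known for roles in the neural plate border, the dorsal neural tube and the early crest. All 8 enteric crest receptors and factors were detected, among them Ednrb (90.3 ± 8.61 TPM) and Gfra1 (47.5 ± 0.933 TPM). Sox2, named here after its value was seen, is in this list and in the stomach identity list. Which cells of the stomach held the RNA of the enteric crest list was not measured. Ednrb stood at 6.79 times the TPM of Sox10 in replicate 2 and 7.75 times in replicate 1. Neuronal genes were 8 of 8 detected, with Uchl1 (75.7 ± 1.41 TPM), Stmn2 (72.5 ± 1.63 TPM) and Gap43 (72.0 ± 0.127 TPM) highest.

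Schwann cell lineage genes were likewise detected in part. Of 13, 7 were detected, led by Pmp22 (142 ± 8.05 TPM, n = 2), Cnp (26.9 ± 0.629 TPM) and Mbp (14.5 ± 0.983 TPM), all of which other cells also express. Cdh19, named for its use as a marker of Schwann cell precursors and after its value was seen, stood at 1.62 ± 0.035 TPM. Those under TPM 1 were Dhh (0.735 ± 0.007 TPM), Gjc3 (0.320 ± 0.014 TPM), Mag (0.315 ± 0.346 TPM), Egr2 (0.205 ± 0.049 TPM), Pou3f1 (0.200 ± 0.170 TPM) and Cldn19 (0.010 TPM in both). Mag, with 3 counts in replicate 2 and 22 in replicate 1, and Pou3f1, with 5.42 and 20, were over 2-fold lower in replicate 2, both at few counts.

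The genes of mature astrocytes and enteric glia, Gfap and S100b among them, spread from high to near 0. Of 10, 7 were detected, led by glutamine synthetase Glul (96.6 ± 5.61 TPM, n = 2), the gap junction gene Gja1 (62.2 ± 4.97 TPM) and the glutamate transporter Slc1a3 (14.1 ± 0.820 TPM), which muscle, mesenchyme and epithelium also use. Besides S100b, the others detected were Entpd2 (6.37 ± 0.693 TPM), Aqp4 (4.62 ± 0.361 TPM) and Aldh1l1 (2.64 ± 1.12 TPM). Entpd2, Aqp4 and Aldh1l1 are named here after their values were seen. Beside Gfap, Slc1a2 (0.840 ± 0.198 TPM) and the potassium channel Kcnj10 (0.095 ± 0.049 TPM) were under TPM 1. None lay over 2-fold apart.

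**Figure D5:**
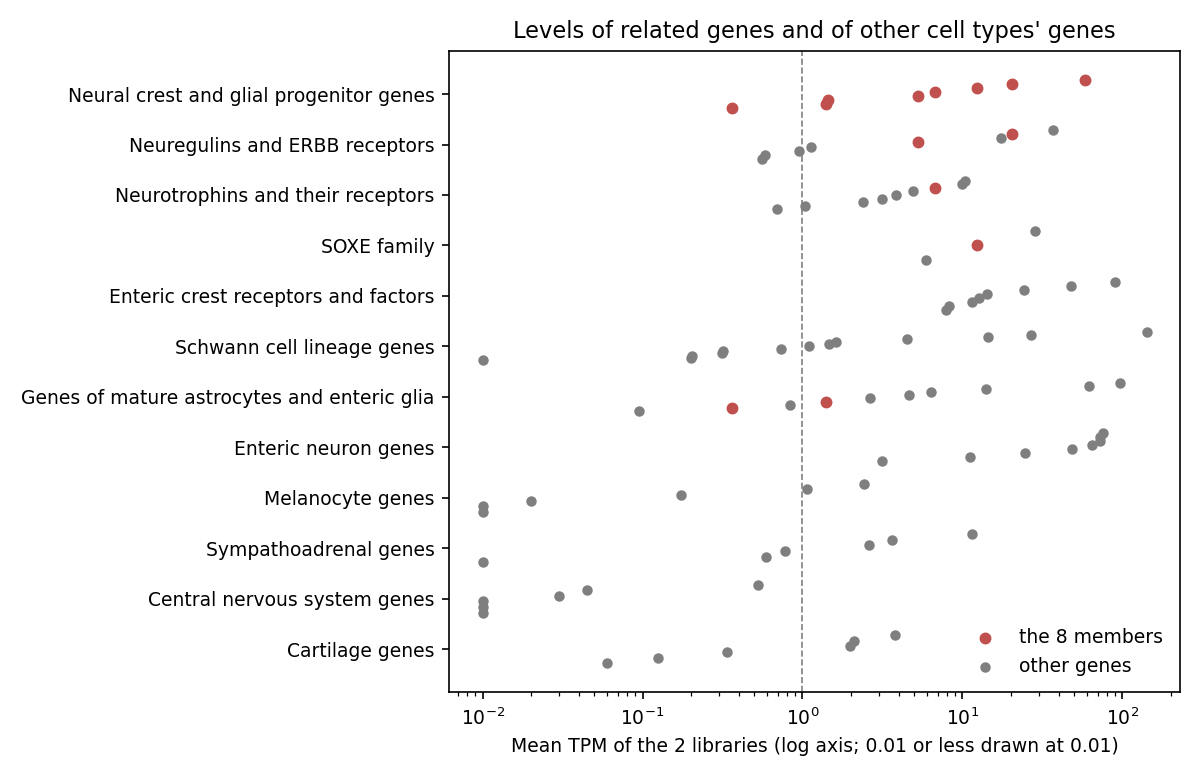
Mean TPM of the 2 libraries (log axis) of each gene in 12 lists, 1 row a list, with the 8 members in red and other genes in grey; the dashed line marks TPM 1 and values of 0.01 or less are drawn at 0.01. Every enteric crest and enteric neuron gene lies to the right of the line, and every central nervous system gene to its left.

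Genes of other crest derivatives, of the central nervous system and of cartilage ranged from 0 to the 11.5 TPM of Slc18a2, the vesicular monoamine transporter gene. None of 6 central nervous system genes was detected: Pax6, which endocrine cells also express, had 14 counts in replicate 2 and 29 in replicate 1, Olig1 had 0 counts in replicate 2 and 3 in replicate 1, and Olig2, Sox1 and Otx2 had 0 in both libraries. Of 6 melanocyte genes 2 were detected, Mitf (2.43 ± 0.354 TPM, n = 2) and Pmel (1.07 ± 0.021 TPM), while Dct had 2 counts in replicate 2 and 11 in replicate 1, Tyr 1 in each, and Tyrp1 and Mlana 0 in both. Of 6 cartilage genes, a tissue that also makes S100B, 3 were detected, Hapln1 (3.80 ± 0.156 TPM), Col2a1 (2.10 ± 0.361 TPM) and Col9a1 (1.98 ± 0.601 TPM). The cartilage genes Acan (0.335 ± 0.247 TPM), Matn1 (0.125 ± 0.049 TPM) and Comp (0.060 ± 0.014 TPM) were under TPM 1. Of 6 sympathoadrenal genes 3 were detected, Slc18a2 (11.5 ± 0.700 TPM), Chgb (3.65 ± 1.57 TPM) and Th (2.59 ± 0.311 TPM), which enteric neurons or endocrine cells also express, while Slc18a1 (0.775 ± 0.290 TPM) and Dbh (0.595 ± 0.389 TPM) were under TPM 1 and Pnmt had 0 counts in both. Over all 6 genes of each list, the summed TPM in replicate 2 and in replicate 1 was 0.390 and 0.820 for the central nervous system, 3.30 and 4.08 for melanocytes, 7.62 and 9.16 for cartilage, and 17.2 and 21.01 for sympathoadrenal genes. In these lists Pax6 and Acan, with log2 ratios of -1.05 and -1.56, were over 2-fold lower in replicate 2.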

How the data were processed

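RNA-seq of total RNA was made from E14.5 stomachs, with 10 ng of starting RNA, RNAs longer than 200 nt kept and spike-in RNAs added, per the labels. The authors deposited, for each library, expected counts (estimated reads, not normalized) and TPM per gene and transcript, and the percent of each gene's TPM in each transcript. Notes deposited with the tables name mm10 as the assembly and GENCODE M4 as annotation; the sources used here do not give the programs that aligned and counted. TPM totals include the spike-ins. The 26248 entries with a number for a name, holding 25 counts in replicate 2 and 15.5 in replicate 1, stayed out of library sizes and counts of genes. Symbols came from GENCODE M21, which matched 42462 of 43346 identifiers; positions are from M21 too.

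Ratios used expected counts, 0.5 added to each, and TMM library sizes from edgeR 4.0.16 (R 4.3.3), on genes averaging 10 counts or more. With 1 group of 2 libraries no test was possible. Count intervals are exact Poisson and ratio intervals exact Clopper-Pearson, both at 95%, on rounded counts; they and the one-sided limit of 3 counts for a count of 0 cover counting error only, since PCR reads without molecular identifiers are not independent molecules. The SD holds embryo and library differences together. The replicates were not 1 library deposited again, since their gene counts differed beyond counting noise (chi-square statistic 153110, with 17509 degrees of freedom). Ratio calling was tested on simulated data, with shifts placed only in genes of higher counts than Gfap and S100b. The simulation thus does not cover those 2 genes, and no conclusion is drawn from it. Promoter windows came from RefSeq (GRCm38.p6). Alternatives were DESeq2 1.42.0 size factors, plain totals, spike-in scaling, TPM ratios, posterior mean values, rescaled TPM, other thresholds, and each library alone. Tables were handled in pandas 2.3.3 and numpy 2.4.6, intervals came from scipy 1.17.1 and plots from matplotlib 3.10.9 (Python 3.11.15).

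The 22 gene lists, that of the members among them, were chosen with earlier results of these data known. From each list the 3 most abundant genes and those under TPM 1 in either library are named, with transcripts at a mean share of 10% or more; any other gene is said to be named after its value was seen. A few genes that this rule would name are not reported here. No gene is named for a similar pattern, since 2 libraries of 1 group give none to compare.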

Additional observations from a re-analysis of the deposited data

How the results depend on the processing

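The number of members detected stayed at 7 with each library alone, at TPM 0.5 and with posterior mean TPM, was 5 at TPM 2, and 8 at an expected count of 10 in both libraries. No member lay over 2-fold apart under any scaling, filter or TPM ratio tried. The nearest to it was Nrg1 under spike-in scaling, at a log2 ratio of -0.97. At 1.5-fold there were 2, Nrg1 and Gfap. Over all genes, the 631 over 2-fold apart became 38 at a mean count of 100 or more, 5062 with no filter on low counts, and 1672 at 1.5-fold; the first 2 of these settings change which low-count genes are tested. The log2 ratios of the 8 members stayed inside their counting intervals under DESeq2 size factors, plain totals, TPM ratios, posterior mean counts and 1 added to each count. Spike-in scaling moved 4 of the 8 outside, Sox10, Erbb3, Fabp7 and Ngfr, the last to -0.38.

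Rescaling TPM without spike-ins and mitochondrial genes raised values 1.22-fold in replicate 2 and 1.19-fold in replicate 1, which is more than the SD for 6 of the 8 genes. Posterior mean TPM moved 4 genes by more than the SD, and for Gfap gave 0.610 in place of 0.360 TPM. With 11 to 60 counts a library, Gfap, S100b and Foxd3 are the members whose levels depth limits most.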

Other observations

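Set among their protein families, Fabp7, S100b and Gfap held different places. Of 9 FABP genes 6 were detected, and Fabp7, at 58.3 ± 1.52 TPM (n = 2), was second to Fabp5 (365 ± 45.3 TPM), a gene of epithelia and other cells, and above the adipocyte and endothelial gene Fabp4 (36.3 ± 0.028 TPM). Fabp12 (0.090 ± 0.057 TPM) was under TPM 1, Fabp6 had 2 counts in replicate 2 and 0 in replicate 1, and Fabp9 had 0 in both. Of 16 S100 genes 12 were detected, with S100a11 (1324 ± 11.5 TPM), S100a10 (322 ± 7.11 TPM) and S100a6 (201 ± 20.2 TPM) highest. S100b, at 1.40 ± 0.262 TPM, was the lowest of the 12 detected S100 genes, and S100a3, S100a5, S100a7a and S100z had 4 counts or fewer in each library. Of 10 type III and IV intermediate filament genes 8 were detected, led by vimentin Vim (425 ± 21.8 TPM), desmin Des (35.5 ± 4.69 TPM) and the neuronal gene Prph (24.6 ± 3.03 TPM). Gfap was the lowest of these 10, and Nefh (0.620 ± 0.071 TPM) was the other one under TPM 1. The TPM of Vim was 889 times that of Gfap in replicate 2 and 1692 times in replicate 1. None of the genes of these 3 families with a mean count of 10 or more lay over 2-fold apart.

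Noncoding genes lie close to the starts of both transcription factor members. Gm12688, a long intergenic noncoding RNA that lies 1316 bases from Foxd3 on the other strand, had 23 counts in replicate 2 and 16 in replicate 1, or 2.13 and 1.58 TPM. Gm10863, 801 bases from Sox10 and also on the other strand, had 19 counts in replicate 2 and 13 in replicate 1, or 2.06 and 1.28 TPM. The TPM of Gm12688 was above that of Foxd3 in replicate 2 and close to it in replicate 1. That order rests on few counts, and no counting interval was computed for Gm12688, so it is not settled. Gm10863 was far below Sox10 in both libraries.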
